A study of Mus musculus with 6 samples.

Results

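The genes described here encode the proteins of the cytosolic ribosome. They were taken by name from the array annotation, as every non-control probe whose gene name begins with Rpl, Rps, Rplp or Rpsa and continues as ribosomal protein symbols do, without the S6 kinases. This gave 82 of the 36870 gene names on the array, 50 of the large and 32 of the small subunit, read by 181 probes. The brightest probe stood for each gene, and 79 of the 82 were bright enough to be tested. The study compared lung tumors of C57BL/6J mice of the genotype Ror1f/f; CAG-CreER; SPC-hEGFRdel746-750, so both groups carried the floxed Ror1 gene, the tamoxifen-inducible Cre recombinase under the broadly active CAG promoter and the mutant human EGFR transgene under the surfactant protein C promoter of alveolar type 2 cells. Treatment was tamoxifen in one group and corn oil in the other, began at 16 weeks of age and lasted 4 weeks, and tumors were taken at 20 weeks. There were 3 samples of each, and tamoxifen and oil samples that share a number were put together on 2 arrays of opposite dye orientation. Such a pair of samples is called a couple here, and a ratio is always tamoxifen over oil within a couple, on the log2 scale.

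Cytosolic ribosomes carry out nearly all protein synthesis of the cell, and each holds a single copy of most of its proteins. Growth signals through mTOR and MYC are known to raise the production of ribosomal proteins, mTOR acting on translation through a pyrimidine tract at the very start of their mRNAs. Free ribosomal proteins, Rpl5 and Rpl11 above all, are known to bind Mdm2 and so to stabilise p53 when ribosome assembly is disturbed. The genes are scattered over nearly all chromosomes and are among the most abundant mRNAs of any tissue.

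All 6 arrays lay on 1 slide in 1 scan, and the share of probes above background ran from 51.8% to 58.8% over the arrays and channels. The floxed gene could not be checked, since the deleted exon is not named in the labels: the Ror1 probe gave ratios of 0.58, 0.44 and 0.18 in couples 1, 2 and 3, higher in the samples labelled tamoxifen. The labels do not say whether numbered samples were separate animals, so the p-values measure only the spread between these samples. Xist, the RNA of the inactive X, read 6.62 in tamoxifen sample 1 and 8.74 in oil sample 1 (log2 signal), and Eif2s3y, a gene of the Y chromosome, read 9.73 and 6.01. Couple 1 thus set a tumor with Y-linked signal against a tumor without it. In couples 2 and 3 the Xist ratios were 0.09 and 0.10, and those of Eif2s3y 0.14 and 0.63. Ribosomal protein probes were bright, at a median log2 signal of 15.83, and none of their 775 spots per array was saturated.

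The start of a ribosomal protein mRNA is where mTOR control of translation is known to act. The arrays read mRNA level and not translation, so this control was not measured here. The bases around the annotated start are shown for 6 genes that hold a pyrimidine run there. Of these, 4 were lower and 2 were higher in the tamoxifen samples. Each line gives 10 bases before to 20 bases after the start, from RefSeq on GRCm38.p6, with a pyrimidine run in capitals. A run was a stretch of at least 8 bases, each C or T, that begins with C within 10 bases of the start on the sense strand.
Rpl13a: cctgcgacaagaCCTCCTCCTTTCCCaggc
Rpl18: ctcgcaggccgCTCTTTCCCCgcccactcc
Rpl27a: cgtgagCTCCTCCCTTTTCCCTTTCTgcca
Rps9: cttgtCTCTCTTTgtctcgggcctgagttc
Rpl15: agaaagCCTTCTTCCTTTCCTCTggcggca
Rps24: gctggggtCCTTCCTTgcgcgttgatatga
The first 4 lie at chr7:45128726-45128755 (minus strand), chr7:45718061-45718090, chr7:109519185-109519214 and chr7:3704031-3704060 (plus strand), and the last 2 at chr14:18270967-18270996 (minus strand) and chr14:24490668-24490697 (plus strand). Such a run was present at the start of 21 of the 61 ribosomal protein genes with a promoter entry (34.4%), against 8.44% of all 27025 genes with one. The count depends on the annotated start: Rps24 has another start, not shown, without a run. A run that crosses the start but begins further upstream, as at Rpl7a, was not counted, so a gene without a counted run may still hold a tract. The letters CCGGAAG, the core of sites of ETS-family factors, occurred on either strand of the 300-base promoter of 25 of the 61 (41%), against 9.93% of all genes. Both are descriptions of sequence. Genes with a run were found among those lower and those higher in tamoxifen. So were genes without a counted run, such as Rps19 and Rps3 (lower) and Rps4x and Rpl36a (higher).

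Across the 3 couples, none of the ribosomal protein genes passed the test between tamoxifen and oil. The mean ratio lay within 1.25-fold of equality for 77 of 79 genes (97.5%), against 93.2% of all genes. It was above 0 for 48 (60.8%), against 48.8% of all genes, and below 0 for 31. The median gene was at 0.07, against -0.0039 over all 20475 genes tested, and its couples were at 0.04, 0.02 and 0.06. No ribosomal protein gene passed an adjusted p of 0.05 in limma (0%, as for all genes), and their adjusted p ran from 0.688 to 0.996. At an unadjusted p under 0.05, 5 of 79 were higher (6.33%, against 3% of all genes) and 5 were lower (6.33%, against 4.01%). In all, 10 of 79 (12.7%) were past that limit, against 7.01% of all genes. These counts rest on all 3 couples: without couple 1, 2 or 3 in turn, 2, 5 and 0 genes were higher and 1, 1 and 2 were lower. The shares of all genes with a couple left out are not given here. A p that misses the threshold does not show that the levels were equal.

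What did recur was the direction. The ratio had the same sign in all 3 couples for 40 of 79 ribosomal protein genes (50.6%), against 30.2% of all genes. Of these, 24 were higher in tamoxifen (30.4%, against 13.8%) and 16 were lower (20.3%, against 16.4%). On all 6 arrays 22 kept their sign (27.8%, against 13.3%), 10 above 0 (12.7%, against 6.04%) and 12 below (15.2%, against 7.21%). The 3 tamoxifen and 3 oil samples did not overlap for 24 genes (30.4%, against 12.3%). Tamoxifen was higher for 12 of them (15.2%, against 5.2%) and lower for the other 12 (15.2%, against 7.14%). The median SD over couples was 0.126 for ribosomal protein genes and 0.168 for all genes.

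**Figure D1:**
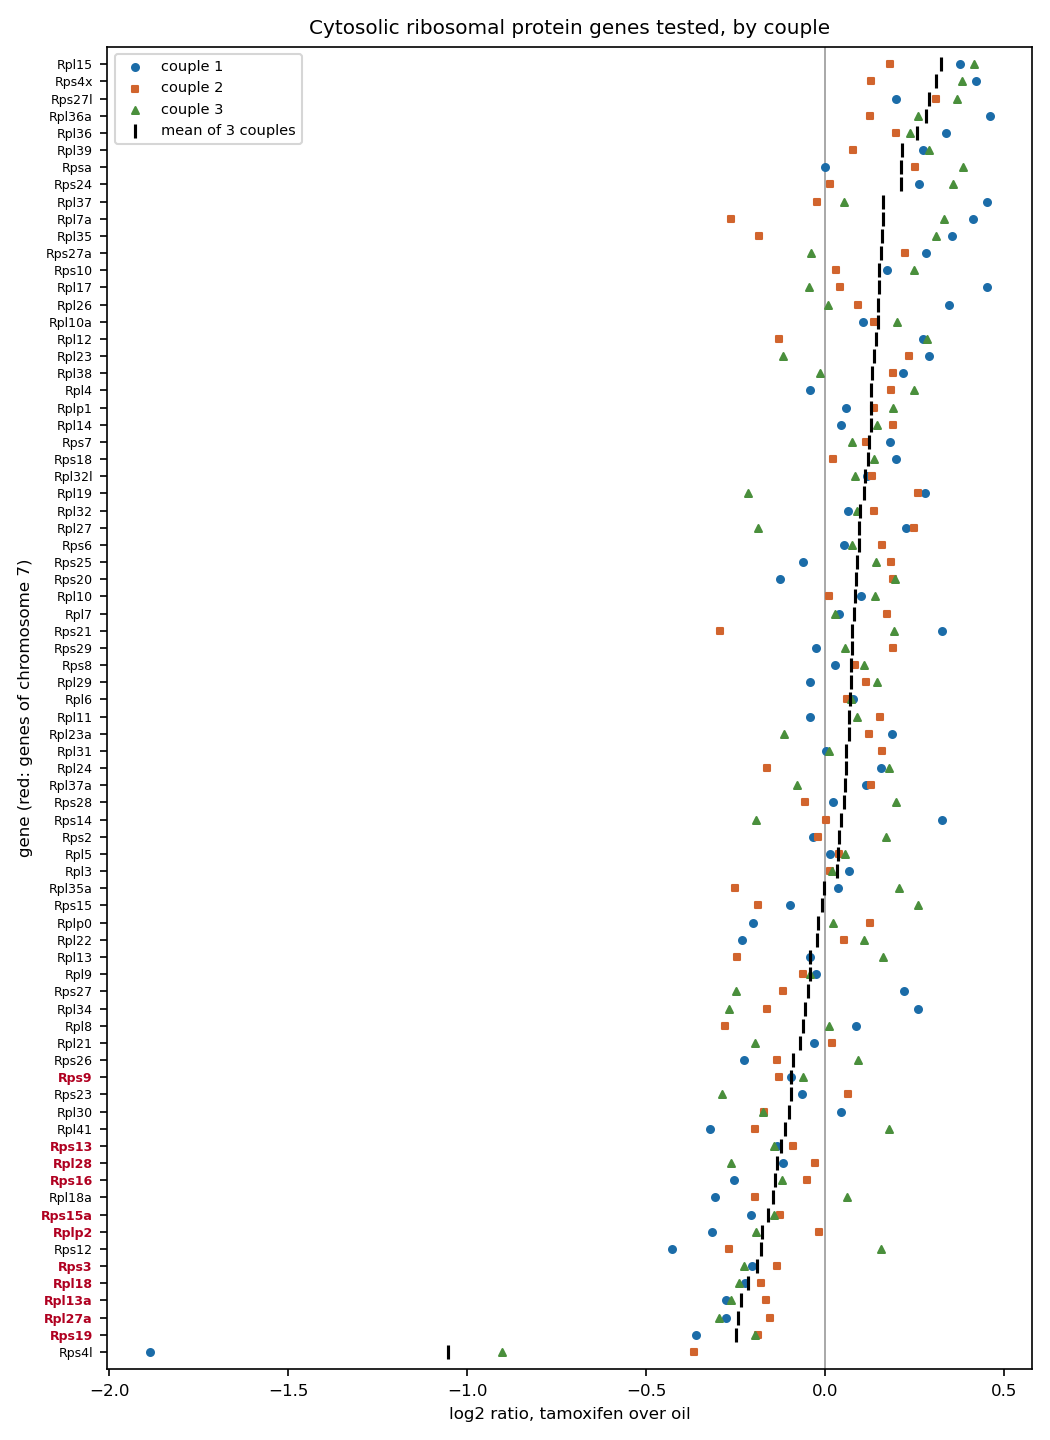
Log2 ratio of tamoxifen over oil (x axis) for 76 of the tested ribosomal protein genes (y axis, ordered by mean), with one symbol per couple and a bar for the mean of 3 couples. Names in red are genes of chromosome 7 (11 drawn), which sit near the bottom with every couple below 0; Rps4l stands apart at -1.05.

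The ratio of a ribosomal protein gene in a couple followed that of its neighbours on the chromosome. In couples 1, 2 and 3, 61, 73 and 65 of the 79 genes (77.2%, 92.4% and 82.3%) had the sign of the median of the other genes on their chromosome. For the 10 chromosomes with at least 4 tested ribosomal protein genes, the median of these genes correlated with the median of the chromosome's other genes at Pearson r = 0.97, 0.93 and 0.94 in the 3 couples (Spearman rho 0.95, 0.85 and 0.93). Over all 19 chromosomes that hold any, rho was 0.91, 0.85 and 0.87, and r was 0.65, 0.90 and 0.83. These are descriptions across chromosomes, which share the same 6 samples and arrays. Subtracting the chromosome's median from each gene cut the median absolute deviation of the ribosomal protein genes from 0.242 to 0.163, from 0.207 to 0.123 and from 0.208 to 0.144.

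Other sets of genes showed the same. Mitochondrial ribosomal protein genes, which are encoded in the nucleus and serve the organelle's own ribosome, had the sign of their chromosome in 75.6%, 73.1% and 82.1% of 78 genes. For the 31 genes of the proteasome, the cell's main protease, it was 90.3%, 83.9% and 93.5%. All other genes tested had it in 61%, 63.7% and 61.7%. DNA copy number was not analysed here, and what moves the chromosomes was not tested.

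**Figure D2:**
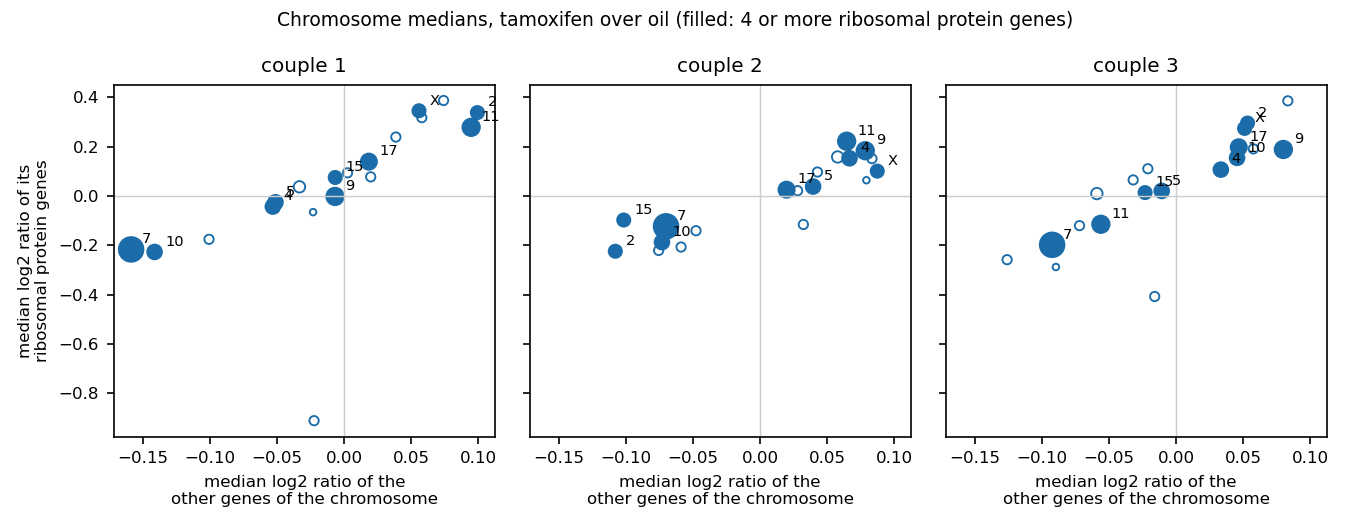
Each circle is a chromosome in one couple: the x axis gives the median log2 ratio of its genes that are not ribosomal protein genes, the y axis that of its ribosomal protein genes, and circle area grows with their number (filled and numbered from 4 on). Chromosome 7 lies at the lower left in all 3 panels, while chromosomes 2, 10 and 11 change sides; the open circle at -0.91 in couple 1 is chromosome 6, which holds Rps4l and 1 other gene.

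Chromosome 7 holds the largest group of these genes and was the one on which all of them were lower in tamoxifen. All 14 of its ribosomal protein genes were below 0 in all 3 couples, against 2 of the 65 elsewhere, and 40.9% of the 1485 other genes of chromosome 7. Their median ratios were -0.22, -0.12 and -0.20, and those of the other genes of the chromosome were -0.16, -0.07 and -0.09. Tamoxifen and oil samples did not overlap for 12 of the 14, against 24.6% of the chromosome's other genes in this direction and 7.14% of all genes. On all 6 arrays 11 of the 14 were below 0, against 23.4% of the chromosome's other genes and 7.21% of all genes. The chromosome was singled out after its values were seen, so no test is attached to it.

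The 14 come from both subunits and from unrelated sites of the ribosome. Rpl13a, a large subunit protein also known for silencing inflammatory mRNAs when released, had log2 signals of 15.20, 15.39 and 15.34 in the tamoxifen samples and 15.48, 15.55 and 15.61 in the oil samples. Each tamoxifen sample was below each oil sample, with a mean ratio of -0.24 ± 0.06 (SD, n = 3 couples; limma adjusted p = 0.688). Rpl18, a large subunit protein, read 15.01, 15.06 and 14.98 under tamoxifen and 15.23, 15.24 and 15.22 under oil. Again no samples overlapped, and the couples were close to each other at -0.23, -0.18 and -0.24 (mean -0.22 ± 0.03).

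Rpl27a, which lies near the peptidyl transferase centre, read 15.20, 15.32 and 15.20 under tamoxifen and 15.47, 15.47 and 15.49 under oil, a mean ratio of -0.24 ± 0.08 with no overlap. Rps19, the small subunit protein most often mutated in Diamond-Blackfan anaemia, read 16.47, 16.59 and 16.55 against 16.83, 16.78 and 16.75. It had the lowest mean on the chromosome, at -0.25 ± 0.10, and its dimmer probes gave -0.26, -0.25 and -0.08. Rps3, at the mRNA entry, was at -0.21, -0.14 and -0.23, with no overlap between groups.

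Other genes of the chromosome were closer to equality. Rplp2, an acidic protein of the ribosomal stalk, had ratios of -0.32, -0.02 and -0.19, and Rps15a of -0.21, -0.13 and -0.14. Rpl28, a large subunit protein, was at a mean of -0.14 ± 0.12. Rps13 was small but even, at -0.12 ± 0.03. The tamoxifen and oil samples of Rps16 overlapped (-0.14 ± 0.10). Rps9, near the decoding region, was closest to 0, at -0.10 ± 0.03, yet its samples did not overlap.

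Along the chromosome the other genes were below 0 throughout: in each of 8 consecutive steps of 20 Mb their median was negative in every couple, from -0.25 to -0.13 in couple 1, from -0.09 to -0.06 in couple 2 and from -0.13 to -0.06 in couple 3. The 6 mitochondrial ribosomal protein genes of chromosome 7 had medians of -0.24, -0.03 and -0.27, with 3 of 6 below 0 in all couples. The 4 proteasome genes there had medians of -0.32, -0.04 and -0.26, with 2 of 4 below 0 in all couples. Relative to each gene's mean over the 6 samples, the ribosomal protein genes of chromosome 7 stood at -0.13, -0.03 and -0.11 in tamoxifen samples 1, 2 and 3 and at 0.07, 0.10 and 0.08 in the oil samples. All 3 samples of each group therefore lay on one side.

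**Figure D3:**
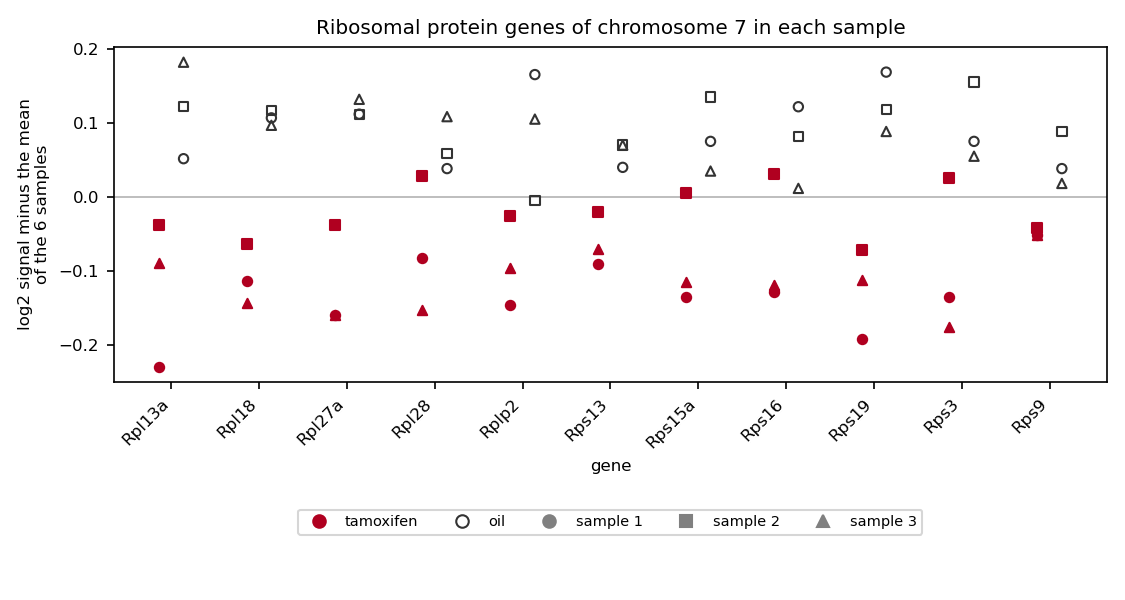
Log2 signal of 11 chromosome 7 ribosomal protein genes (x axis) in the 3 tamoxifen (filled) and 3 oil (open) samples, minus the gene's mean of the 6 samples (y axis); symbols mark the sample number. The filled symbols lie below the open ones for 10 of these genes, and overlap for Rps16.

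On chromosomes 11, 2 and 10 the median of the ribosomal protein genes changed sign between couples. The 7 genes of chromosome 11 had medians of 0.28, 0.22 and -0.11, and the other genes of that chromosome 0.09, 0.06 and -0.06. Rpl23, a large subunit protein, is typical: 16.11, 16.08 and 15.93 under tamoxifen against 15.82, 15.85 and 16.05 under oil, so couple 3 ran opposite to the other two. Rpl19 did likewise at 0.28, 0.26 and -0.22, as did Rpl27 at 0.23, 0.25 and -0.19. Rps27a, made as a fusion with ubiquitin and thus also a source of free ubiquitin, was at 0.28, 0.22 and -0.04.

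Chromosome 2 turned in couple 2. Its 4 ribosomal protein genes had medians of 0.34, -0.22 and 0.30, beside 0.10, -0.11 and 0.05 for its other genes. Rpl7a read 15.86, 15.59 and 15.82 under tamoxifen and 15.45, 15.86 and 15.49 under oil, so that tamoxifen sample 2 and oil sample 2 exchanged places. Rpl35, near the tunnel exit, was at 0.35, -0.19 and 0.31, and Rpl12, at the base of the stalk, at 0.27, -0.13 and 0.28. Rps21 followed at 0.32, -0.29 and 0.19.

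Chromosome 10 turned in couple 3, with medians of -0.23, -0.19 and 0.15 for its 5 ribosomal protein genes and -0.14, -0.07 and 0.05 for the others. Rps12, a small subunit protein, read 16.23, 16.34 and 16.62 under tamoxifen and 16.66, 16.61 and 16.47 under oil. Its mean of -0.18 ± 0.30 is the eighth lowest, although couple 3 was above 0. Rpl41, the smallest ribosomal protein, was at -0.32, -0.20 and 0.18, Rps26 at -0.23, -0.14 and 0.09 and Rps15 at -0.10, -0.19 and 0.26.

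On the other chromosomes with at least 4 of these genes, apart from the X given further on, the medians were as follows. The 7 genes of chromosome 9 had medians of -0.0017, 0.18 and 0.19, and the 6 of chromosome 17 of 0.14, 0.03 and 0.20. The 5 of chromosome 4 were at -0.04, 0.15 and 0.11, the 5 of chromosome 5 at -0.03, 0.04 and 0.02, and the 4 of chromosome 15 at 0.08, -0.10 and 0.01. In couple 3, the medians of chromosomes 5 and 15 lay on the other side of 0 from those of their other genes, and in couple 1 that of chromosome 15 did.

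Ribosomal protein genes are known for their many processed copies, and the brightest probes of 2 genes, Rps27 and Rps29, are listed on the array at a chromosome other than that of the gene. The probe of Rps29 is shown as one of them, that of Rpl32l as the probe of a named copy, and those of Rpl15 and Rpl18 as the probes of the highest mean and of a gene of chromosome 7. Each has 60 bases, in lower case throughout, and none was aligned to other copies here.
Rps29: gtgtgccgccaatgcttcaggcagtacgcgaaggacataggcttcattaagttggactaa
Rpl32l: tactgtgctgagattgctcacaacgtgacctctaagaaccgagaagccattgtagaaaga
Rpl15: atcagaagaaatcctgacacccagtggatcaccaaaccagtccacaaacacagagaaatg
Rpl18: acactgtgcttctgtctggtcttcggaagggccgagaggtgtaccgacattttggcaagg
The Rps29 probe is listed at chr2:172335021-172335079 (mm9, minus strand) although the gene is on chromosome 12, and the Rpl32l probe at chr10:19928572-19928631 (mm9, plus strand). For comparison, the Rpl15 probe is at chr14:19101657-19101716 (mm9, minus strand) and the Rpl18 probe at chr7:52975771-52975829 (mm9, plus strand), each on the chromosome of its gene. The brightest probe of Rps2 is listed on its gene's chromosome, at chr17:42864841-42864900 (mm9). The window at that gene's annotated start lies far from it, at chr17:24720053-24720082 (GRCm38.p6). The other probes were compared with their genes by chromosome only. Whether a probe lies in an exon, intron or UTR is not given, as no annotation of that build was used here.

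Rps27, whose probe is listed at chromosome 9 and whose gene is on chromosome 3, had ratios of 0.22, -0.12 and -0.25. The other genes had medians of 0.04, -0.05 and -0.13 on chromosome 3 and of -0.01, 0.08 and 0.08 on chromosome 9. Rpl34, the other tested member of chromosome 3, was at 0.26, -0.16 and -0.27, and Rps3a1, a small subunit gene of chromosome 3 that the naming rule leaves out, at 0.22, -0.15 and -0.33. Rps27 thus had the signs of chromosome 3 in every couple and those of chromosome 9 in none.

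Rps29 was at -0.03, 0.19 and 0.06, with other genes at 0.02, 0.08 and -0.03 on chromosome 12 and at 0.10, -0.11 and 0.05 on chromosome 2. Its sign was shared with each chromosome in a single couple. Rpl32l, a copy of Rpl32 on chromosome 10, was at 0.12, 0.13 and 0.08, near Rpl32 itself on chromosome 6 at 0.06, 0.14 and 0.09. The other genes of chromosome 10 were at -0.14, -0.07 and 0.05. Whether these probes tell near-identical copies apart was not tested.

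The highest mean ratio was that of Rpl15, a large subunit protein of chromosome 14. Its log2 signals were 15.51, 15.34 and 15.40 under tamoxifen and 15.14, 15.16 and 14.99 under oil. No samples overlapped, and the couples were at 0.38, 0.18 and 0.42, a mean of 0.32 ± 0.13 (SD, n = 3 couples), or 1.25-fold, with a limma adjusted p of 0.688. Both dye orientations were above 0 in every couple, from 0.14 to 0.46. Rps24, the other gene of chromosome 14, was at 0.26, 0.01 and 0.36 (mean 0.21 ± 0.18), and the other genes of chromosome 14 had medians of 0.06, 0.04 and 0.08.

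The 4 ribosomal protein genes of the X chromosome were all above 0 in all 3 couples, as were 13.8% of all genes. The share of the other X genes is not given here. Rps4x, a small subunit protein, read 15.14, 14.94 and 14.98 under tamoxifen and 14.72, 14.81 and 14.60 under oil, with no overlap and a mean ratio of 0.31 ± 0.16. Rpl36a, beside the exit site of the tRNA, read 15.67, 15.42 and 15.38 against 15.21, 15.30 and 15.12, a mean of 0.28 ± 0.17. Rpl39, a short protein in the wall of the exit tunnel, was at 0.21 ± 0.12 and Rpl10, which joins the large subunit late, at 0.08 ± 0.07. With tamoxifen in Cy3, Rpl10 was below 0 in every couple, at -0.22, -0.26 and -0.12.

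In couple 1, where the samples differed in Xist and Y-linked signal, the median of these 4 genes was 0.35. It was 0.10 in couple 2 and 0.27 in couple 3. The other genes of the X chromosome were at 0.06, 0.09 and 0.05. Rpl36a had the widest range between probes of a gene, from 0.12 to 0.35.

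Rps27l, the paralog of Rps27 and a known target of p53, read 14.46, 14.59 and 14.22 under tamoxifen and 14.27, 14.28 and 13.85 under oil. The samples overlapped, but each couple was above 0, at 0.20, 0.31 and 0.37 (mean 0.29 ± 0.09, limma adjusted p = 0.688). A dimmer probe gave 0.29, 0.33 and 0.39. On a list of 10 p53 targets and regulators linked to ribosomal stress, none passed an adjusted p of 0.05, and 3 were higher and none lower at an unadjusted p under 0.05 (3% and 4.01% of all genes).

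These were Ccng1, encoding cyclin G1, at 0.80, 0.60 and 0.55, Phlda3, an inhibitor of Akt, at 0.44, 0.26 and 0.58 and Trp53inp1, a p53-induced nuclear protein, at 0.38, 0.28 and 0.46. Cdkn1a, the cell cycle inhibitor p21, was at 1.05, 0.18 and 0.26. Mdm2, which targets p53 for degradation, was at -0.04, -0.02 and 0.11, and Bax, which permeabilises mitochondria and lies on chromosome 7, at -0.25, -0.22 and -0.06. The median of the 10 was 0.04. Rps27, the partner of Rps27l, did not share its direction, as given above.

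Rpl36, a large subunit protein of chromosome 17, read 16.05, 15.76 and 15.96 under tamoxifen and 15.72, 15.56 and 15.73 under oil, with no overlap and a mean of 0.26 ± 0.07. Its size differed with the dye: with tamoxifen in Cy5 the couples were at 0.52, 0.30 and 0.38, and with tamoxifen in Cy3 at 0.16, 0.10 and 0.09. Rpsa, which acts in small subunit assembly and is also known as a laminin receptor, was at -0.0017, 0.25 and 0.38, a mean of 0.21 ± 0.20.

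**Figure D4:**
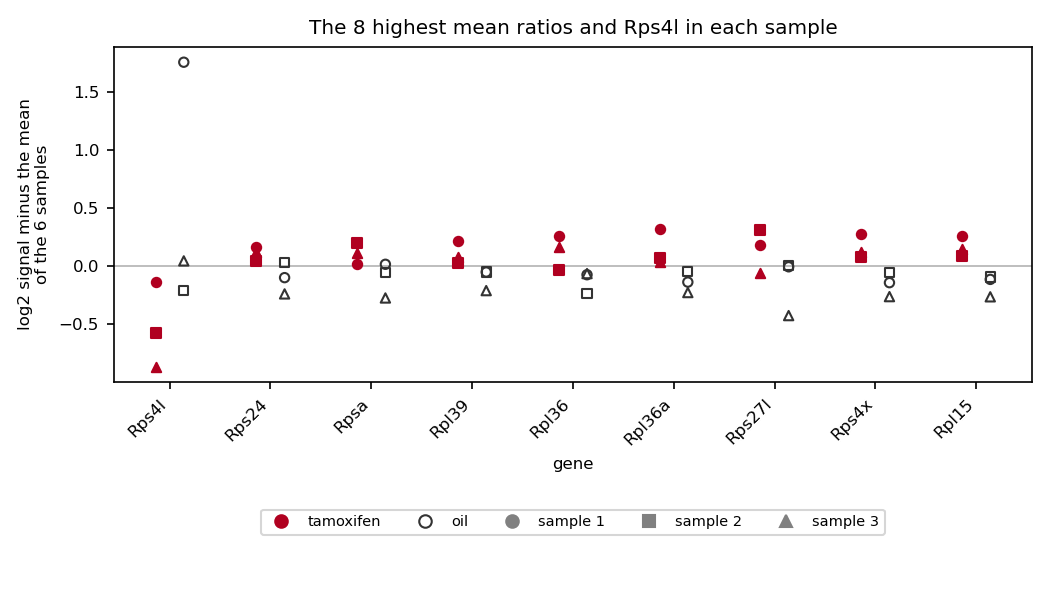
Log2 signal in the 3 tamoxifen (filled) and 3 oil (open) samples, minus the gene's mean of the 6 samples (y axis), for Rps4l and the 8 ribosomal protein genes with the highest mean ratios (x axis, in order of mean). Oil sample 1 of Rps4l stands far above all other points, while for Rpl15, Rps4x, Rpl36a, Rpl36, Rpl39 and Rps24 every filled symbol is above every open one.

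Rps4l, a paralog of Rps4x on chromosome 6, had by far the lowest ratio and the widest spread. It read 10.02, 9.58 and 9.29 under tamoxifen and 11.91, 9.95 and 10.20 under oil. Oil sample 1 was the high one, and the groups overlapped. The couples were at -1.89, -0.37 and -0.90, a mean of -1.05 ± 0.77 (limma adjusted p = 0.688), opposite in sign to Rps4x. Couple 1 is also the one whose samples differed in Xist. Xist was as high in tamoxifen sample 2 and oil sample 2, at 9.09 and 8.99, where Rps4l read 9.58 and 9.95. A link between the 2 was not tested. The probe of Rps4l is annotated to a RefSeq entry for a non-coding RNA. Without couple 1 the mean of Rps4l was -0.64.

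The other paralogs known from restricted tissues were dim. Rpl10l and Rpl39l, best known from testis, did not exceed background clearly in any of 6 tamoxifen or 6 oil readings. Rpl3l, best known from heart and skeletal muscle, did so 2 times of 6 under tamoxifen and 1 time of 6 under oil. None of these 3 was tested. Their widely expressed partners were at 0.03 ± 0.03 (Rpl3), 0.08 ± 0.07 (Rpl10) and 0.21 ± 0.12 (Rpl39). The only probe for Rpl37 was also dim, clearly over background 6 times of 6 under tamoxifen but 4 times of 6 under oil, and its ratios of 0.45, -0.02 and 0.05 rest on that signal.

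Ordered by role, the ribosomal proteins of a site differed among themselves, and their chromosomes are given beside them. Rpl5 and Rpl11, which form the 5S particle that binds Mdm2, were at 0.04 ± 0.02 and 0.07 ± 0.10. Rpl5 read 15.03, 15.13 and 14.99 under tamoxifen and 15.02, 15.09 and 14.93 under oil, groups that overlap almost fully. Of the 4 stalk proteins, which recruit elongation factors, Rplp1 was at 0.13 ± 0.07, Rpl12 at 0.14 ± 0.24, Rplp0 at -0.02 ± 0.17 and Rplp2 of chromosome 7 at -0.18 ± 0.15.

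At the tunnel exit, where the new chain leaves, 7 of 8 genes were above 0, with a median of 0.13, and none was past an unadjusted p of 0.05. The exception was Rpl22, at -0.23, 0.05 and 0.11. Rpl26, Rpl31 and Rpl23a were at 0.15 ± 0.18, 0.06 ± 0.09 and 0.07 ± 0.16. Rpl17 was at 0.45, 0.04 and -0.05, so couple 1 alone carried its mean. Rpl19 and Rpl23a, both on chromosome 11, were below 0 in couple 3 only.

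Around the peptidyl transferase centre, where the peptide bond forms, 3 of 5 genes were above 0. Rpl4 was at 0.13 ± 0.15, Rpl3 at 0.03 ± 0.03 and Rpl8 at -0.06 ± 0.19, and Rpl27a of chromosome 7 was the lowest. Of the 8 small subunit proteins of the decoding site and the mRNA path, 6 were below 0, with a median of -0.09. Among these 6, Rps3 and Rps9 lie on chromosome 7 and Rps15 and Rps26 on chromosome 10. Rps23 of chromosome 13 was at -0.07, 0.06 and -0.29. Rps2 and Rps28, both on chromosome 17, were at 0.04 ± 0.11 and 0.05 ± 0.13.

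Of the 7 proteins of small subunit assembly and signalling, 5 were above 0. Rps6, the substrate of the S6 kinases downstream of mTOR, read 15.29, 15.39 and 15.43 under tamoxifen and 15.24, 15.24 and 15.36 under oil, an overlap with a mean of 0.09 ± 0.06. Rps14, one of the genes deleted in a human myelodysplastic syndrome, was at 0.32, 0.0010 and -0.19. Rps7 was above 0 in every couple without overlap between samples, at 0.12 ± 0.05. The lowest was Rps19 of chromosome 7.

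The 47 tested genes of the large subunit had a median of 0.07, with couples at 0.07, 0.05 and 0.06. The 32 of the small subunit had a median of 0.04, with couples at -0.05, -0.04 and 0.07, so the signs differed in couples 1 and 2, a difference that was not tested. The naming rule leaves out a few ribosomal protein genes, of which 7 were tested: 4 were above and 3 below 0, with a median of 0.04, and none passed an unadjusted p of 0.05. Fau, which encodes Rps30 as a fusion, was at 0.30, -0.05 and 0.11, beside 0.12, -0.01 and 0.04 for its chromosome 19.

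Taking out the chromosome's median in each couple left a shorter list. At an unadjusted p under 0.05, 3 of 79 ribosomal protein genes were then higher and 1 was lower, and none passed the adjusted threshold (lowest 0.741). Before centring, 3% of all genes were higher and 4.01% lower at that limit. The shares of all genes after centring are not given here, so these counts are not read as an excess. The 3 were Rps27l, at 0.20, 0.23 and 0.29, Rpl15, at 0.32, 0.14 and 0.33, and Rpl36, at 0.32, 0.18 and 0.19. The 1 was Rps4l, with a centred mean of -1.05. The median of the 14 genes of chromosome 7 moved from -0.17 to -0.06, and Rps9 went to 0.01. This centring was added after the data were seen.

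The dyes set a part of the ratios. With tamoxifen in Cy5 the median ribosomal protein gene was at 0.11 over the 3 arrays, and with tamoxifen in Cy3 at -0.06. The mean over couples had opposite signs in the 2 orientations for 30 of 79 genes (38%), against 35.7% of all genes. The median size of the dye effect, the distance of either orientation from their mean, was 0.077 for ribosomal protein genes and 0.057 for all genes. Rps10, a small subunit protein, is an example: 0.42, 0.25 and 0.48 with tamoxifen in Cy5, and -0.07, -0.19 and 0.01 in Cy3. Averaging both orientations cancels a constant dye effect. The chromosome 7 genes were at a median of -0.14 in the one orientation and -0.18 in the other.

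**Figure D5:**
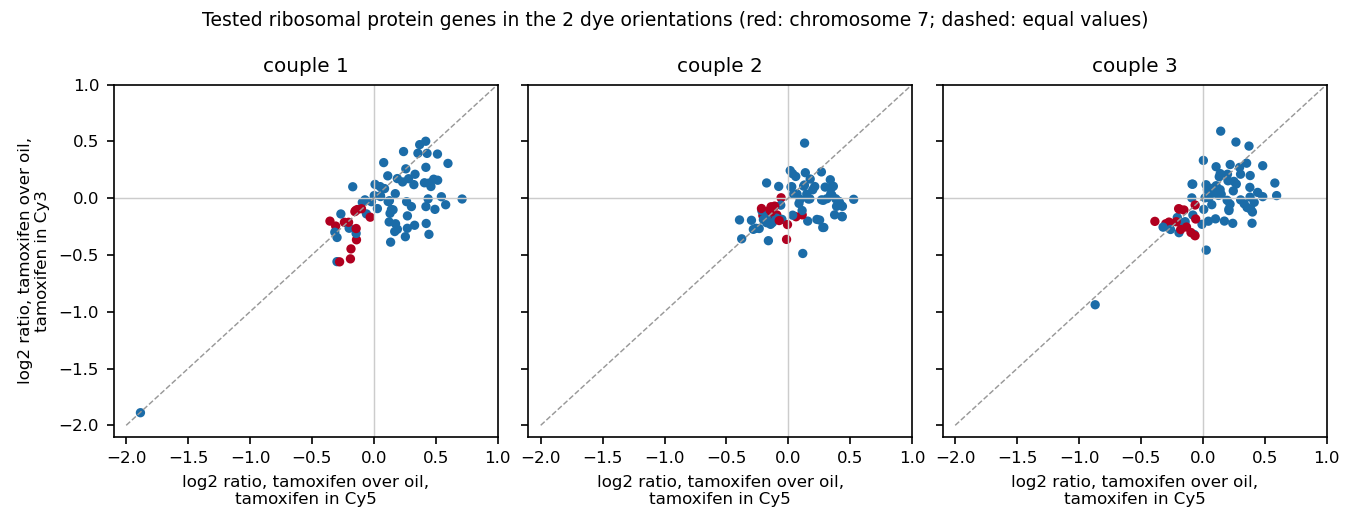
Log2 ratio of tamoxifen over oil of each of the 79 tested ribosomal protein genes with tamoxifen in Cy5 (x axis) and in Cy3 (y axis), one panel per couple, with chromosome 7 genes in red and a dashed line at equal values. The Spearman correlation across genes was 0.55, 0.40 and 0.57, and 11 of the 14 red genes are below 0 on all 6 arrays.

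Repeat spots and second probes gave close values. The 33 genes whose probe is printed 10 times had a median SD between spots of an array of 0.04, from 0.012 to 0.083. Of 58 genes with several probes above background, 7 had probes that disagreed in sign, among them Rps12 (-0.18 and 0.04), Rpl30 (from -0.10 to 0.10) and Rpl7 (from -0.01 to 0.09). The median range between probes of a gene was 0.033. Between couples the ratios of 78 ribosomal protein genes, without Rps4l, had Spearman correlations of 0.34 (couples 1 and 2), 0.33 (1 and 3) and 0.16 (2 and 3), across genes that are not independent. With the chromosome's median taken out they were 0.28, 0.30 and 0.08. Over all 20475 genes, without centring, they were 0.16, 0.08 and 0.01.

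Genes that act with the ribosome gave the following counts, none with a member past an adjusted p of 0.05. Of all genes tested, 48.8% were above 0, 3% were higher at an unadjusted p under 0.05 and 4.01% lower. Of 30 ribosome biogenesis genes, 21 were above 0, with couples at 0.19, 0.16 and -0.07 and 1 higher at an unadjusted p under 0.05, Rrp9, a nucleolar processing factor (0.22 ± 0.03). Of 78 mitochondrial ribosomal protein genes, 54 were above 0, with couples at 0.15, 0.13 and -0.09 and 2 of 78 higher and 1 of 78 lower at that limit, shares no larger than those of all genes. Of 15 translation factors and other mRNAs with a terminal pyrimidine tract, 5 were above 0, with couples at -0.04, -0.15 and 0.07 and 1 lower at that limit. The 31 proteasome genes, 19 of them above 0, were at 0.11, 0.10 and -0.10, with none past it. In each of these 4 lists couple 3 had the opposite sign to couple 1. The median of the 79 ribosomal protein genes, at 0.04, 0.02 and 0.06, did not show this. Nor did that of the large subunit genes, at 0.07, 0.05 and 0.06. The median of the small subunit genes did show it, at -0.05, -0.04 and 0.07. So did that of the 7 ribosomal protein genes outside the naming rule, at 0.27, -0.05 and -0.03.

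Among 15 genes of mTOR and MYC control, 7 were above 0 and the median was -0.04. Mtor was at 0.08, 0.31 and 0.06, Larp1, which binds terminal pyrimidine tracts, at 0.37, 0.20 and -0.14, and Myc at -0.12, -0.12 and -0.94. Mycn, a relative of Myc, was the 1 gene of the list past an unadjusted p of 0.05, at 1.71, 0.57 and 1.28 (mean 1.19 ± 0.57, limma adjusted p = 0.688).

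No cell type marker passed an adjusted p of 0.05. All 12 alveolar type 2 markers were above background in all 12 readings, and 11 of 12 were below 0, with couples at -0.21, -0.25 and -0.26 and 6 of 12 lower at an unadjusted p under 0.05, against 4.01% of all genes. Relative to each gene's mean, they stood between -0.25 and -0.13 in the tamoxifen samples and between 0.05 and 0.18 in the oil samples. Sftpb, a surfactant protein, was at -0.62 ± 0.09 and had the smallest p of the list. Lyz1 (-1.43, -0.25 and -0.45) and Lyz2 (-1.44, -0.24 and -0.44), both among the 6, had nearly equal ratios. Whether their probes tell the 2 genes apart was not tested. In couple 1 both lay far below the list's median of -0.21, and alveolar macrophage markers had a median of -1.08 there. Whether these 2 genes read type 2 cells or other cells was not tested. Not past an unadjusted p of 0.05 were Napsa (-0.86), Lamp3 (-0.26), Sftpc (-0.18), Abca3 (-0.04), Nkx2-1 (-0.03) and Cd74 (0.08). The median couple ratios of fibroblast markers were -0.14, -0.21 and -0.28 (7 of 8 genes below 0, 2 lower at that limit), and those of heart muscle markers -0.13, -0.25 and -0.05 (7 of 7 below 0, 1 lower). Those of T and NK cells were 0.23, 0.11 and 0.02 (8 of 8 above 0) and those of B and plasma cells 0.16, 0.11 and 0.19 (5 of 6 above 0). These lists kept one sign in all couples. Markers of alveolar macrophages were at -1.08, 0.42 and -0.37, of endothelium at -0.18, 0.11 and 0.25 and of erythroid cells at 0.19, 1.05 and -1.68, and proliferation genes at -0.22, 0.05 and 0.98, all of which changed sign between couples. By the mean over couples, 9 of 10 macrophage and 4 of 4 erythroid markers were below 0. Above 0 were 7 of 8 endothelial markers and 10 of 10 proliferation genes. None of these was past an unadjusted p of 0.05. In bulk tumor RNA, fewer cells of a type and less RNA per cell cannot be told apart. The part of cell makeup in the ribosomal protein ratios was not tested.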

How the data were processed

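Each array was hybridised with a tamoxifen and an oil sample. The deposited scanner files hold spot intensity (mean foreground, median local background) without normalization, per the file headers, and a log10 ratio of the scanner software, which the submitters' processing notes name as Agilent Feature Extraction 12.0.3.1. The deposited table of the series holds log2 ratios, which matched the log10 ratios with slopes of 3.32 to 3.33. Its column medians ran from -0.153 to 0.137, and scale and direction were settled by that match. The same files hold flags (score of 0 or 1, deposited) for spots above background.

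From the intensities, limma 3.58.1 under R 4.3.3 applied normexp (offset 50) and loess within each array, with control spots at weight 0 and flagged outliers left out. Spots of a probe were averaged, and the brightest probe stood for a gene. A gene was tested if both arrays of 2 or more couples showed it well above background in either group, which left 20475. Dye-swapped arrays were averaged, and the 3 couple ratios tested against 0 with lmFit and eBayes, two-sided, with Benjamini-Hochberg adjustment over all genes. The procedure was tested on simulated data. Signals per sample come from the channels after Aquantile normalization, with both arrays averaged. The number of arrays limits the precision. Positions of probes are on mm9, and chromosomes of genes come from a reference table of GRCm38.p6. Named genes are members of the role lists, the 8 highest and 8 lowest means, the 5 smallest p and up to 3 genes whose probes disagree. Other genes were named after their values were seen. The genes and lists were chosen with earlier results of these data known. The same number in both groups marks a shared array, so every ratio is paired within its couple. Single values of a few genes are not reported here, and these genes are not named in the figures, while counts and medians include them.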

Additional observations from a re-analysis of the deposited data

How the results depend on the processing

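Under each of the 16 alternatives, 0 ribosomal protein genes passed an adjusted p of 0.05 in limma. The median of the 14 chromosome 7 genes stayed between -0.20 and -0.14, except for -0.0603 after chromosome centring. The median of all 79 moved from 0.07 to 0.11 with only the arrays with tamoxifen in Cy5 and to -0.0643 with only those with oil in Cy5. In these 2 settings the couples were at 0.14, 0.0699 and 0.11, and at -0.0745, -0.0724 and -0.0372. Couple 1 was at 0.0582 with the mean over probes and at 0.0623 after chromosome centring. The counts of 5 higher and 5 lower at an unadjusted p under 0.05 became 2 and 1 with the scanner software's ratio, 5 and 1 with an offset of 16, 7 and 11 with no filter, 23 and 4 with tamoxifen in Cy5, 0 and 0 with a trended robust prior, and 3 and 1 after chromosome centring. Treating 6 arrays with the couple as a replicate block gave 3 and 5 and called 56 of all genes (9 with a dye term), none of them a ribosomal protein gene. Leaving out 1 couple gave medians of 0.0351 to 0.0547, 0 to 5 higher (0 without couple 3) and 1 to 2 lower. The shares of all genes at the unadjusted limit are not given for these alternatives. Their counts are therefore not set against a background and show only how far the counts move.

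Some single genes changed sign, among them genes with means of 0.21 (Rps24), 0.16 (Rpl35) and 0.15 (Rpl17). With tamoxifen in Cy5 these were Rpl3 (-0.0518), Rps15 (0.0338), Rps2 (-0.11) and Rps27 (0.0262). With oil in Cy5 they were Rpl10 (-0.20), Rpl11 (-0.0781), Rpl19 (-0.15), Rpl31 (-0.19), Rpl35 (-0.16), Rpl4 (-0.12), Rplp0 (0.066), Rplp1 (-0.12), Rps14 (-0.0879), Rps24 (-0.0613) and Rps28 (-0.0425). Chromosome centring turned Rps15 (0.0468) and Rps9 (0.0116). Leaving out 1 couple gave ranges of -0.00179 to 0.247 for Rpl17, -0.0897 to 0.0808 for Rpl22, -0.134 to 0.0475 for Rpl8, -0.0912 to 0.0726 for Rplp0, -0.0968 to 0.163 for Rps14, -0.143 to 0.0791 for Rps15, -0.0282 to 0.0735 for Rps2, -0.184 to 0.0507 for Rps27 and -0.0187 to 0.109 for Rps28. The cause of these changes was not tested.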
